A study of Homo sapiens with 6 samples.

Results

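The RUNX, CBFB and ETO family was followed in U937T:PLZF-RARa cells through 24 probe sets, each annotated with exactly 1 symbol that belongs to the family, out of 54675 probe sets on the Affymetrix HG-U133 Plus 2.0 array. The rule named 7 genes and found probe sets for 6 of them, among 19775 genes named alone on the array: 6 for RUNX2, 3 for RUNX3, 2 for CBFB, 7 for RUNX1T1, 5 for CBFA2T2 and 1 for CBFA2T3. The 13 probe sets that list RUNX1 also list other loci, so no value is given for RUNX1. U937T:PLZF-RARa is an engineered derivative of the human monocytic leukaemia line U937 in which the fusion of PLZF (ZBTB16) with the retinoic acid receptor RARA is switched on by taking tetracycline away. The uninduced group holds 3 samples kept in medium with 0.1 µg/ml tetracycline and likewise labelled 48 h. The induced group holds 3 samples washed and grown for 48 h without it. Both groups carry the PLZF-RARa construct and both grew in RPMI-1640 with serum, puromycin and G418. With no line lacking the construct, effects of the fusion and of taking tetracycline away cannot be told apart. All samples come from this 1 engineered line, and whether it is a single clone, or the replicates separate cultures, is not stated by the labels. The p-values therefore cover the variation among these 6 samples alone, which may be technical.

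RUNX proteins are transcription factors that contact DNA through a shared Runt domain. CBFB does not bind DNA itself: it pairs with any RUNX protein, strengthens its hold on DNA and protects it from degradation. RUNX1T1 (ETO), CBFA2T2 (MTGR1) and CBFA2T3 (MTG16 or ETO2) are nuclear corepressors without DNA binding of their own, which bring SIN3 and histone deacetylases to factors such as the E proteins and PLZF. In the blood lineage RUNX1 with CBFB is needed for stem cell formation and myeloid and platelet development, RUNX3 acts in T cells and natural killer cells, RUNX2 is best known as the master factor of bone, and both RUNX1 and CBFB are broken by chromosome rearrangements in acute myeloid leukaemia.

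The deposited values are GCRMA intensities, a background-corrected and summarised brightness per probe set, and all levels below are their log2 values. Levels of different probe sets are not comparable, because each binds its target with its own strength. Only probe sets brighter than a log2 value of 4 on 3 or more of the 6 arrays entered the test, 20552 in all. Array medians were 8.05 to 8.41 on the linear scale, arrays of a group correlated at 0.9963 to 0.9976 and arrays of different groups at 0.932 to 0.938. Uninduced replicate 3 stood apart, with a 75th percentile of 6.92 on the log2 scale against 7.11 to 7.18 on the others. For the GAPDH control, the signal at the 3' end exceeded that at the 5' end, a measure of RNA integrity, by a log2 difference of 0.481 to 0.530 in uninduced and 0.555 to 0.619 in induced samples (exact permutation p = 0.1, two-sided, the smallest that 3 against 3 allows). For ACTB this difference was 1.153 to 1.306 in uninduced and 1.296 to 1.497 in induced samples (exact permutation p = 0.2, two-sided). The part of RNA integrity in the results was not tested. RARA probe set 211605_s_at read 1.81 to 1.99 in uninduced and 7.40 to 7.73 in induced samples, with no overlap between the labelled groups. The other 4 RARA probe sets did not rise: 203749_s_at was 2.24-fold lower (limma, adjusted p = 1.10e-05), 203750_s_at (-0.22, adjusted p = 0.133) and 216300_x_at (-0.12, adjusted p = 0.301) missed the threshold, and 1565358_at lay below the filter. Which of them cover sequence of the fusion was not analysed here. Of 12 markers of monocytic cells 5 were tested and above background, among them LYZ and PTPRC, while CD14, CSF1R, FCGR1A, ANPEP and ITGAX lay below the filter. All 6 T cell markers lay below it too, as did 5 of 6 megakaryocyte markers, the other having no probe set that named it alone; 1 of 6 B cell, 1 of 6 erythroid and 1 of 6 osteoblast markers passed.

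Of the 24 member probe sets 8 passed the filter and all 8 were above it on all 6 arrays, so none entered through 1 group alone. After induction 5 of these 8 rose, 1 fell and the 2 RUNX3 probe sets did not pass (limma, adjusted p threshold 0.05). Over all tested probe sets 62.5% were called, 34.6% higher and 27.9% lower, so a call by itself is the common outcome on these arrays and 6 of 8 is near that background. Without any 1 of uninduced replicates 1, 2 and 3 or induced replicate 2, and in a fit with no filter, 3 rather than 5 rose, the CBFB probe sets no longer passing. The groups did not overlap in the same number, 6 of 8, against 70.2% of all tested probe sets. The members' median log2 difference was 0.30, beside 0.03 for all tested probe sets. The family differed from gene to gene: RUNX2 and CBFA2T2 rose, CBFA2T3 fell, CBFB rose by a small amount and RUNX3 showed no called change. In bulk RNA, a change in the share of cells that express a gene and a change in RNA per cell cannot be told apart.

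**Figure D1:**
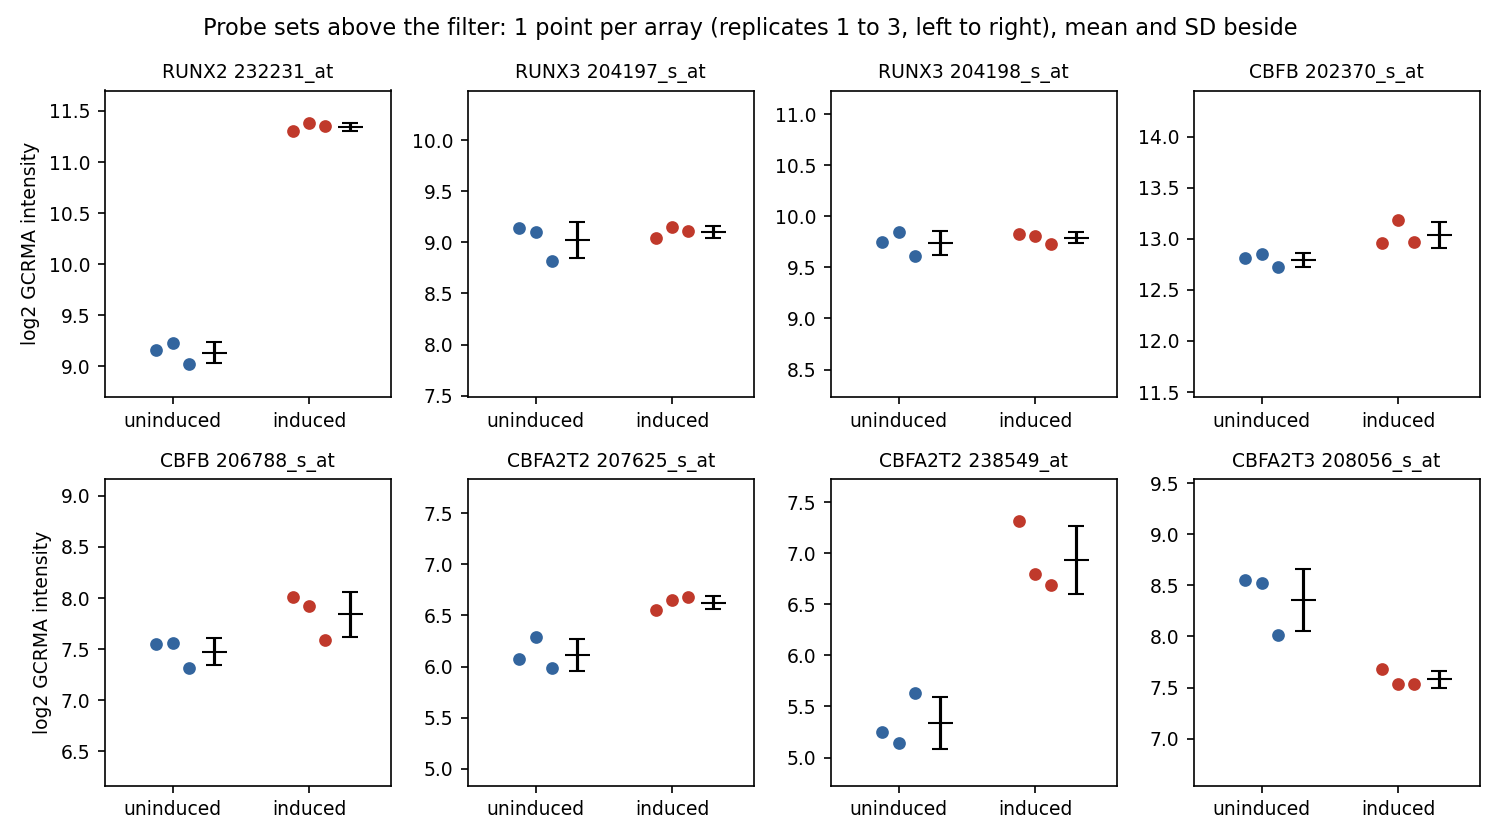
Log2 GCRMA intensity of the 8 member probe sets above the filter, 1 point per array (uninduced in blue, induced in red) with the group mean and SD beside; every panel spans 3 log2 units. RUNX2 232231_at separates the groups by 2.07 at their nearest points, while the 2 RUNX3 panels overlap.

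RUNX2 had the largest change of the family. Probe set 232231_at read 9.16, 9.23 and 9.02 in uninduced replicates 1 to 3 and 11.30, 11.38 and 11.35 in induced replicates 1 to 3. All induced arrays lay above all uninduced ones, and the gap between the nearest arrays, 2.07, was far wider than the spread within either group. The mean went from 9.14 ± 0.10 to 11.34 ± 0.043 (SD, n = 3 each), a log2 difference of 2.21 with a standard error of 0.073 (limma, adjusted p = 1.38e-06). That is 4.62-fold higher, with a 95% confidence interval of 4.10 to 5.21. Among all tested probe sets 3.41% moved at least as far in either direction. The value was 2.13 to 2.25 over the alternatives tried and stayed past the threshold in each of the 14.

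The result for RUNX2 rests on this 1 probe set. The other 5 RUNX2 probe sets, 216994_s_at, 221282_x_at, 221283_at, 236858_s_at and 236859_at, lay between 1.69 and 3.11 on every array, below the filter. Their differences ran from -0.03 to 0.00, none passed in a fit with no filter (limma, 0 called, 0 at an unadjusted p under 0.05, smallest adjusted p = 0.871) and their groups overlapped. Where each probe set lies on the RUNX2 transcripts was not analysed here, and whether the signal comes from a full-length RUNX2 messenger RNA was not tested.

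RUNX2 and RUNX3 each have an upstream and a downstream promoter entry in RefSeq. The upstream RUNX2 promoter is shown because RUNX2 is the member that changed most and because it holds matches to the RUNX site. The letters searched, on both strands, were TGTGGT and TGCGGT, the core of the RUNX site, and AGGTCA and GGGTCA. The latter are single hexamers of the kind that retinoic acid receptors bind in pairs. Pairs were not searched for. The line gives the 250 bases before the transcript start, 5′ to 3′ on the gene's strand, from RefSeq on GRCh38.p14, with matches in capitals. RUNX2 lies on the plus strand of chromosome 6 from 45328330 to 45551082 and the window is chr6:45328080-45328329.
RUNX2 upstream promoter: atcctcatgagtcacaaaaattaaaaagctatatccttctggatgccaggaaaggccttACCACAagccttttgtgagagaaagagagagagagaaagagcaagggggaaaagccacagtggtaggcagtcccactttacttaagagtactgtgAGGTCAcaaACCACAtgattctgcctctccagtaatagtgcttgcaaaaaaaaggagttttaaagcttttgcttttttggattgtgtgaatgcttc
The upstream entries of RUNX2 and RUNX3 share an 18-base stretch with a pair of RUNX cores, given here in capitals. No other of the 35116 promoter entries searched holds it. The only RUNX1 entry among them held 0 RUNX cores, and any other RUNX1 promoter was not searched.
Shared stretch: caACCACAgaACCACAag
In RUNX2 it starts at base 15 of the transcript, counting the start of the entry as base 1 (chr6:45328344-45328361). In RUNX3, on the minus strand of chromosome 1 from 24899511 to 24965138, it starts 133 bases before the start of the entry (chr1:24965126-24965143). Of the 250 bases before that start 128 lie inside the annotated RUNX3 gene. The stretch spans the outer end of the gene and lies partly inside it.

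Counted over the whole entries, from 250 bases before to 50 after the start, the RUNX2 upstream promoter held 5 RUNX cores and 1 retinoid receptor hexamer. The hexamer lies 96 to 91 bases before the start and a RUNX core 87 to 82 bases before it, with no overlap. The RUNX3 upstream promoter held 2 cores and no hexamer of these letters. The downstream promoters of RUNX2 and RUNX3 and the promoter entries of CBFA2T2 and CBFA2T3 held neither. Promoters of CBFB and RUNX1T1 were not examined. Of all 35116 entries 19.6% held at least 1 RUNX core, 2.32% at least 2 and 0.0114% at least 5, and 25.6% held at least 1 hexamer. The RUNX2 upstream entry was shown in part for its matches, so these shares are no test of it. These matches describe the letters of the windows only. No binding was measured, and which promoter was in use is not shown by these arrays.

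**Figure D2:**
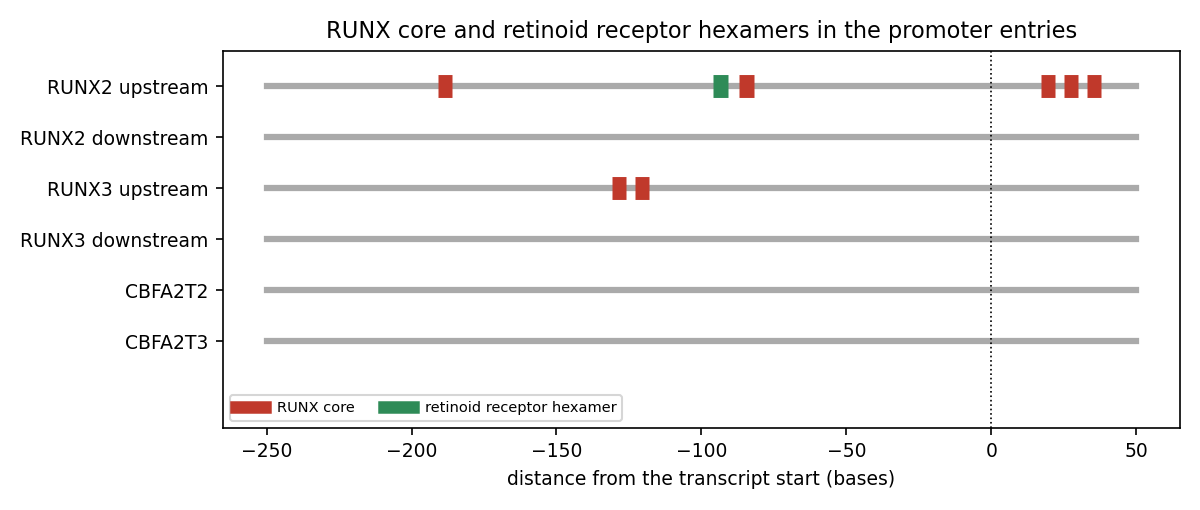
Positions of RUNX core (red) and retinoid receptor hexamer (green) matches in 6 promoter entries, by distance in bases from the transcript start (dotted line). The 5 cores and the 1 hexamer of the RUNX2 upstream promoter stand beside 2 cores in the RUNX3 upstream promoter and none in the other 4.

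RUNX3, the family member best known from lymphocytes, was measured well above the filter but showed no called change. Probe set 204198_s_at read 9.75, 9.85 and 9.61 in uninduced and 9.83, 9.81 and 9.73 in induced replicates 1 to 3. The groups overlapped, and the difference of 0.06 (95% confidence interval -0.13 to 0.25) did not pass the test (limma, adjusted p = 0.548). Probe set 204197_s_at read 9.14, 9.10 and 8.82 in uninduced and 9.04, 9.15 and 9.11 in induced samples, a difference of 0.08 (95% confidence interval -0.15 to 0.31; adjusted p = 0.492). In both, uninduced replicate 3 was the lowest array, and without it the differences were -0.01 for 204198_s_at and -0.02 for 204197_s_at. The sign of 204198_s_at also turned after median centring and with array weights, to -0.02 in both. As a fold the intervals allow 0.914 to 1.19 for the first and 0.902 to 1.24 for the second, so a change as large as that of RUNX2 lies outside them. The third probe set, 234928_x_at, stayed at 2.71 to 2.75 on all arrays.

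The contrast between RUNX2 and RUNX3 was tested within each array, as the log2 signal of 232231_at minus that of 204198_s_at. This was -0.58, -0.62 and -0.58 in uninduced and 1.47, 1.57 and 1.62 in induced replicates 1 to 3. It moved by 2.15 (95% confidence interval 1.97 to 2.32; limma, adjusted p = 9.38e-06), so the 2 genes' probe sets responded unequally. The pair was chosen after the values were seen.

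CBFB, the partner that all RUNX proteins share, rose slightly in both of its probe sets. Probe set 202370_s_at read 12.81, 12.85 and 12.72 in uninduced and 12.96, 13.18 and 12.97 in induced samples. Every induced array lay above every uninduced one, by 0.12 at the nearest points. The difference was 0.24 with a standard error of 0.081, a fold of 1.18 (95% confidence interval 1.04 to 1.35; limma, adjusted p = 0.0339). Probe set 206788_s_at read 7.55, 7.56 and 7.32 in uninduced and 8.01, 7.92 and 7.59 in induced samples, with only 0.04 between the nearest arrays. It differed by 0.37 with a standard error of 0.13, a fold of 1.29 (95% confidence interval 1.05 to 1.59; adjusted p = 0.0392). The 2 probe sets moved by amounts that did not differ past the threshold (0.12, 95% confidence interval -0.16 to 0.41; adjusted p = 0.49).

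Both CBFB calls stood close to the threshold. Each was lost in 7 of 13 alternatives with the value staying positive, from 0.16 to 0.28 for 202370_s_at and from 0.22 to 0.49 for 206788_s_at. Without any single uninduced array neither passed: the adjusted p was 0.0723, 0.0548 and 0.0788 for 202370_s_at and 0.0595, 0.0574 and 0.110 for 206788_s_at without uninduced replicates 1, 2 and 3. Without induced replicates 1, 2 and 3 the adjusted p was 0.0422, 0.0847 and 0.0509 for the first and 0.121, 0.113 and 0.00797 for the second. In 64.5% and 53.2% of all tested probe sets the change was at least as large as in these 2.

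Among the ETO corepressors, CBFA2T2 rose in both of its measured probe sets. Probe set 238549_at read 5.25, 5.14 and 5.63 in uninduced and 7.31, 6.80 and 6.69 in induced replicates 1 to 3. The groups lay apart by 1.05 at their nearest points. The mean went from 5.34 ± 0.26 to 6.93 ± 0.33 (SD, n = 3 each), 3.01-fold higher (95% confidence interval 2.19 to 4.15; limma, adjusted p = 3.49e-04). Probe set 207625_s_at read 6.07, 6.29 and 5.99 in uninduced and 6.55, 6.65 and 6.68 in induced samples, again with no overlap. Its difference was 0.51 with a standard error of 0.092, a fold of 1.42 (95% confidence interval 1.22 to 1.65; adjusted p = 0.00251). The first stands among the 7.63% of tested probe sets that moved as far or further, the second among 42.6%.

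The 2 CBFA2T2 probe sets did not rise equally. Within each array 238549_at minus 207625_s_at was -0.82, -1.15 and -0.36 in uninduced and 0.76, 0.16 and 0.01 in induced samples. The shift was 1.09 (95% confidence interval 0.48 to 1.69; limma, adjusted p = 0.0174), where 30.9% of 7715 such pairs of 1 gene were called over the whole array. It did not pass without uninduced replicate 1 (1.07; adjusted p = 0.0511), and over all alternatives it was 0.86 to 1.29. The direction of the gene is the same in both, and its size depends on the probe set. The other 3 CBFA2T2 probe sets, 1554637_a_at, 209144_s_at and 209145_s_at, lay at 1.77 to 2.07 on all arrays.

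CBFA2T3, the ETO member most active in blood progenitors, where it works with the E proteins and the SCL complex, was the 1 member that fell. Its single probe set, 208056_s_at, read 8.55, 8.52 and 8.01 in uninduced and 7.68, 7.53 and 7.53 in induced samples. Uninduced replicate 3 lay nearest to the induced arrays, 0.33 above the highest of them, and the groups did not overlap. The mean went from 8.36 ± 0.30 to 7.58 ± 0.087 (SD, n = 3 each), a log2 difference of -0.78 and a 1.72-fold decrease (limma, adjusted p = 0.00327). It stayed past the threshold in all 13 alternatives, from -0.96 to -0.69. In 27.0% of tested probe sets the change was as large or larger.

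CBFA2T2 and CBFA2T3 went opposite ways, each past the test. Within arrays 207625_s_at of CBFA2T2 minus 208056_s_at of CBFA2T3 was -2.48, -2.23 and -2.01 in uninduced and -1.13, -0.88 and -0.85 in induced samples. It moved by 1.29 (95% confidence interval 0.96 to 1.61; limma, adjusted p = 8.54e-04), also a pair chosen after the values were seen. RUNX1T1, the third corepressor and the partner of RUNX1 in a leukaemia fusion, was near background: its 7 probe sets lay between 1.86 and 2.97 on all arrays. Their differences were -0.02 to 0.00, and 0 were called in a fit with no filter (limma, 0 at an unadjusted p under 0.05, smallest adjusted p = 0.932). A change in RUNX1T1 below what the array can measure would not be seen.

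**Figure D3:**
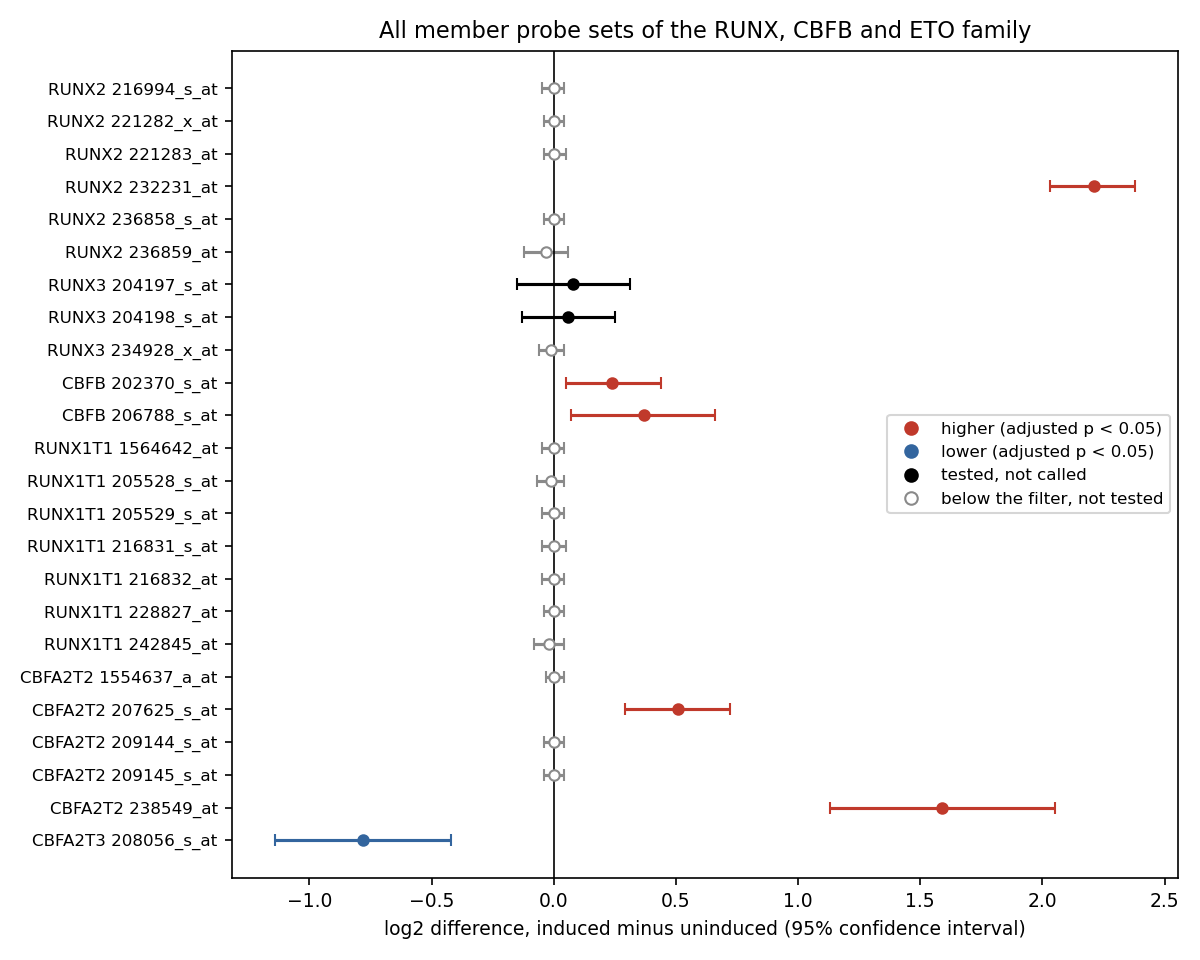
Log2 difference, induced minus uninduced, with its 95% confidence interval (limma) for all 24 member probe sets; open grey points are the 16 below the filter. RUNX2 232231_at (2.21) and CBFA2T2 238549_at (1.59) stand to the right, CBFA2T3 208056_s_at (-0.78) to the left.

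**Figure D4:**
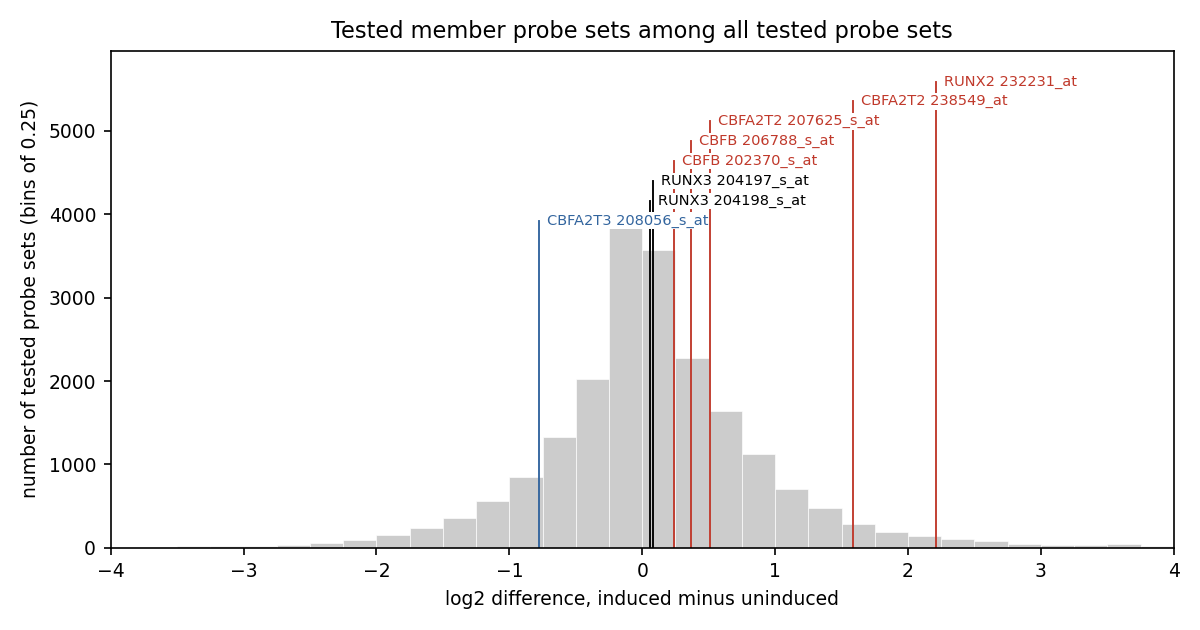
Number of tested probe sets by log2 difference, in bins of 0.25, with the 8 tested member probe sets marked (red higher, blue lower, black not called); 115 probe sets beyond -4 and 4 are not drawn. RUNX2 232231_at lies in the right tail and the RUNX3 and CBFB probe sets in the centre of the distribution.

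By their course over the 6 arrays, the genes most like each member were taken as the 3 with the smallest root mean square difference of centred log2 values among 9835 others. For RUNX2 they were ANKRD35 (0.037), the WNT pathway factor TCF7L2 (0.045) and the membrane adaptor PAG1 (0.048). For CBFB they were PHACTR4 (0.017), HYLS1 (0.019) and the secreted growth factor CLEC11A (0.020). For CBFA2T2, by 207625_s_at, they were the lipid kinase PIP4K2C (0.030), the deubiquitinase USP4 (0.040) and ZNF395 (0.044). For CBFA2T3 they were NBPF20 (0.046), of a family with near-identical copies, the glycosidase ENGASE (0.065) and FAM210A (0.069). With 2 groups this likeness is mostly a like size of change: 2.17 to 2.25 for the genes near RUNX2, against its own 2.21.

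Genes that RUNX and ETO proteins work with were grouped in lists written from general knowledge, each gene taken by its brightest tested probe set. Over all 9836 genes so taken 66.5% were called, 35.8% higher and 30.7% lower, with a median difference of 0.02. Of 6 tested coactivators of RUNX proteins 5 rose and 1 fell, with a median of 0.88. The acetyltransferase EP300 read 9.72, 9.94 and 9.88 in uninduced and 10.99, 10.86 and 11.07 in induced samples, 2.18-fold higher (limma, adjusted p = 4.17e-05). The acetyltransferase KAT6A (MOZ) was 1.85-fold and the histone methyltransferase KMT2A 2.01-fold higher, though for KMT2A 3 of 5 tested probe sets rose and 1 fell. The arginine methyltransferase PRMT1, which modifies RUNX1, was the 1 that fell, from 12.78 ± 0.14 to 11.72 ± 0.12 (SD, n = 3 each), 2.09-fold lower (adjusted p = 9.03e-05). YAP1 and WWTR1 lay below the filter, at 2.78 and 2.89 in uninduced and 2.77 and 2.86 in induced samples.

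Of 9 tested corepressors of RUNX proteins 6 rose, 0 fell (limma; 0 at an unadjusted p under 0.05) and 3 did not pass, with a median of 0.53. The deacetylase HDAC1 was 1.57-fold higher, the scaffold SIN3A 1.99-fold, the polycomb protein RING1 1.45-fold and TLE5 of the Groucho family 1.56-fold. TLE3 and HDAC3 differed by -0.07 and -0.16 and did not pass (adjusted p = 0.647 and 0.0848), though 1 of 4 tested TLE3 probe sets was called higher. TLE1 and TLE2 lay below the filter, at 3.06 and 2.77 in uninduced and 3.02 and 2.75 in induced samples. With each gene taken as the mean over its tested probe sets, 5 corepressors rose. After quantile normalization, after median centring, with array weights or without uninduced replicate 3, 1 of the 9 counted as lower.

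The ETO corepressor partners went both ways, with 5 of 13 higher, 4 lower and a median of -0.14. SIN3A, HDAC1 and TBL1X, a subunit of the nuclear corepressor complex, rose, TBL1X by 1.81-fold in the probe set taken and with all 4 of its tested probe sets higher. PLZF itself (ZBTB16), which ETO proteins bind, read 5.49, 5.19 and 5.08 in uninduced and 3.08, 2.84 and 3.96 in induced samples, and fell by at least 2.38-fold against the filter value (limma, adjusted p = 8.12e-04). Its probe set passed the filter through the uninduced group alone. Which part of ZBTB16, and whether any part kept in the fusion, this probe set covers was not analysed here. The lower calls numbered 7 after median centring and 7 with array weights.

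In the list of E proteins and the SCL complex, through which CBFA2T3 acts in blood cells, 5 of 10 rose and 2 fell, with a median of 0.41. TAL1 (SCL) read 4.16, 4.15 and 4.21 in uninduced, just above the filter, and 6.24, 6.53 and 6.38 in induced samples, 4.64-fold higher (limma, adjusted p = 2.35e-06). Its relative LYL1 went the other way, from 11.82, 11.73 and 11.62 to 9.59, 9.62 and 9.58, 4.36-fold lower (adjusted p = 1.33e-06). The E protein TCF4 was 1.60-fold higher, with 5 of 6 tested probe sets called higher. TCF3 was 1.33-fold higher in its brightest probe set, but of its 9 tested probe sets 2 rose and 1 fell, and with probe sets ending in _x_at or _s_at left out its value was -0.73 (adjusted p = 0.0021). As a mean over all 9 it was 0.04 and did not pass (adjusted p = 0.597). GATA1 and GFI1B lay below the filter, at 2.35 and 2.02 in uninduced and 2.34 and 2.02 in induced samples. The second gene that fell, FLI1, differed by -0.20 (adjusted p = 0.0224). The lower count was 1 with the replicate block and without uninduced replicate 1, uninduced replicate 2, induced replicate 1 or induced replicate 2.

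Of 15 tested enzymes that modify RUNX proteins or mark them for degradation 9 rose and 2 fell, with a median of 0.36. The kinase HIPK2, which phosphorylates RUNX1 and its coactivator EP300, read 8.92, 9.33 and 9.12 in uninduced and 10.88, 10.95 and 10.77 in induced samples, 3.35-fold higher (limma, adjusted p = 1.85e-05). The ubiquitin ligase WWP1 was 2.17-fold and the mitotic kinase CDK1 1.58-fold higher. The kinase PIM1 fell from 7.94 ± 0.095 to 5.78 ± 0.23 (SD, n = 3 each), 4.46-fold lower (adjusted p = 9.93e-06). SRC lay below the filter, at 2.59 in uninduced and 2.58 in induced samples.

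Known RUNX target genes of blood cells went both ways: 7 of 15 tested rose and 5 fell, with a median of 0.11. The list does not separate genes that RUNX proteins activate from genes they repress, so these counts give no direction of RUNX activity. The perforin gene PRF1 was at least 58.3-fold higher in its brightest probe set (limma, adjusted p = 6.47e-08), and as a mean over its 2 tested probe sets the log2 difference was 4.47 in place of 6.34. ELANE, the neutrophil elastase, fell from 12.92 ± 0.11 to 10.12 ± 0.12 (SD, n = 3 each), 6.95-fold lower (adjusted p = 1.30e-06). The myeloid factor SPI1 was at least 8.70-fold lower and NFE2 at least 5.79-fold lower. These probe sets of PRF1, SPI1 and NFE2 passed the filter through 1 group alone, the induced for PRF1 and the uninduced for SPI1 and NFE2. A further 9 targets lay below the filter: MPO, the granule enzyme myeloperoxidase, whose means were 2.69 without and 3.12 with induction, and the genes CSF1R, IL3, PF4, MYL9, ALOX12, GZMB, IFNG and TBX21, which lay between 2.27 and 3.17 in both group means.

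Bone genes that RUNX2 is known to drive were mostly not measured. IBSP (3.20 in uninduced and 3.12 in induced samples), MMP13 (2.42 and 2.41), COL10A1 (3.73 and 3.67), SP7 (2.16 and 2.16) and ALPL (3.03 and 2.82) lay below the filter. Of the 2 tested, the phosphoprotein SPP1 was at least 47.3-fold higher in its brightest probe set (limma, adjusted p = 3.47e-08). That probe set passed the filter through the induced group alone. The growth factor VEGFA was 4.22-fold lower (adjusted p = 8.23e-07). As means over their tested probe sets, 2 for SPP1 and 3 for VEGFA, the log2 differences were 4.37 in place of 7.41 and -1.43 in place of -2.08, both still past the threshold.

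**Figure D5:**
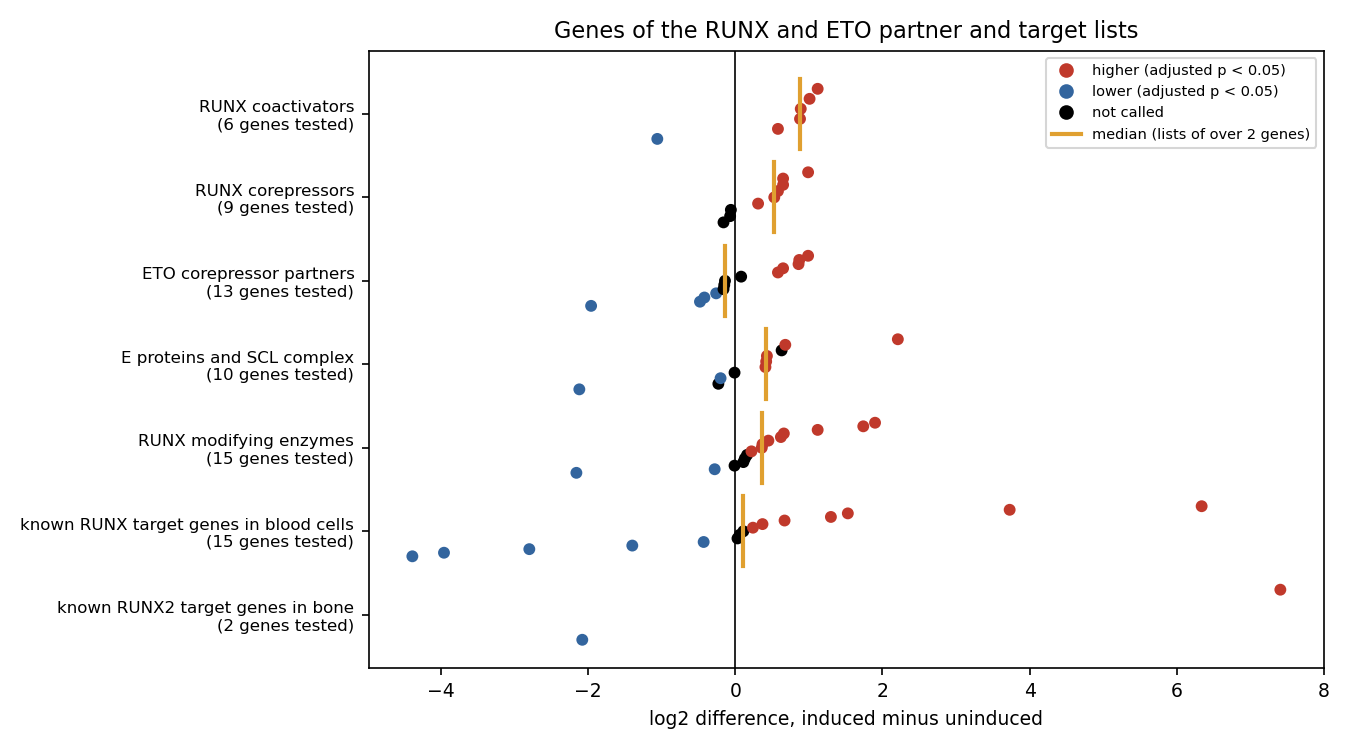
Log2 difference, induced minus uninduced, of each tested gene (1 point, brightest tested probe set) in 7 lists of RUNX and ETO partners and targets; red is higher, blue lower and black not called, and the orange bar is the median of a list. The 5 coactivators that rose lie to the right with PRMT1 alone to the left, while the blood targets spread from NFE2 on the left to PRF1 on the right.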

How the data were processed

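The authors deposited GCRMA intensity values on a linear scale for 6 Affymetrix HG-U133 Plus 2.0 arrays, the method being named per the submitters' processing notes. Per the labels' protocols, total RNA was biotin labelled. Values under 1 (6 of them) were raised to 1 and log2 was taken. Probe sets were named from the platform annotation: of 54613 that are not controls, 41091 had 1 symbol, 1801 several and 11721 none, and only the first were named. Probe sets with a log2 value above 4 on at least 3 arrays were fitted with limma 3.58.1 (R 4.3.3; lmFit and eBayes, induced against uninduced, no block), with Benjamini-Hochberg adjustment over all 20552. A fold written as "at least" sets the bright group's mean against the filter level of 4, where the dim group lay below it on all its arrays. Such a probe set passed the filter through the bright group alone.

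The members and lists were chosen with earlier results of these data known. In each list up to 4 called genes were to be named by smallest adjusted p; others named were chosen after their values were seen. Within-array differences of probe set pairs were fitted the same way, the pairs across genes having been added after the values were seen. Whether the replicate numbers pair samples was not established. Deviations from group means correlated at -0.173, 0.000461 and 0.18 for replicates 1, 2 and 3, which cannot settle it. The script was tested on simulated data. The number of arrays, 3 per group, limits the precision. Alternatives were no and stricter filters, quantile normalization, median centring, array weights, eBayes with trend and robust settings, a replicate block, other probe set choices and leaving out each array.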

Additional observations from a re-analysis of the deposited data

How the results depend on the processing

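Of 799 alternative values over 56 results, 746 kept their direction and their side of the threshold, or stayed within 1.5 times for a count. Over these alternatives RUNX2 232231_at and both CBFA2T2 probe sets stayed higher and CBFA2T3 208056_s_at stayed lower, each past the threshold. With probe sets ending in _x_at or _s_at left out, fewer probe sets were tested, and 4365 rose and 3172 fell over the array. Of the members only RUNX2 232231_at and CBFA2T2 238549_at were still tested, and 2 rose and 0 fell. The coactivator PRMT1 and the bone targets SPP1 and VEGFA were no longer tested. With them gone 0 coactivators fell, and 0 bone targets rose and 0 fell. In the same setting 3 ETO partners and 3 genes of the E protein list rose, and 1 modifying enzyme and 3 blood targets fell. TCF3 was then -0.73, by another probe set. With no filter 3 members rose and 5787 probe set pairs were called. Among the corepressors 1 was lower after quantile normalization, 1 after median centring and 1 with array weights, and among the ETO partners 7 were lower after median centring and 7 with array weights. RUNX3 204198_s_at was -0.02 after median centring and -0.02 with array weights, and the CBFB pair was -1.4e-03 after quantile normalization. The cause was not tested.

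Leaving out 1 array at a time gave 3 to 4 members higher, 0 to 1 corepressors lower and 1 to 3 genes of the E protein list lower. RUNX3 ranged from -0.02 to 0.14 for 204197_s_at and from -0.01 to 0.12 for 204198_s_at, the RUNX3 pair from -0.01 to 0.08 and the CBFB pair from -8.4e-04 to 0.21. The replicate block, for numbers not shown to pair samples, left 5 members higher and 1 gene of the E protein list lower. Of all calls 55.4% were higher, against 45.4% after quantile normalization and 48% after median centring. Probe sets near background, among them all of RUNX1T1, have no measurable change.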
